A study of Mus musculus with 18 samples.

Results

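Cholesterol synthesis was followed through 7 genes of the SREBP2 pathway, Srebf2, Hmgcs1, Idi1, Fdft1, Sqle, Cyp51 and Insig1, chosen by symbol from the 55536 genes counted. The RNA came from mouse striatal cells enriched with CD11b beads, that is, for microglia, and was sequenced in bulk in 18 samples from mice of the C57BL/6 strain. WT mice (n = 5) carried neither mutation. Q175 mice (n = 5) model Huntington's disease: they are heterozygous for a human HTT exon 1 with an expanded CAG repeat knocked into Htt, in every cell. Tyrobp-/- mice (n = 3) lack TYROBP, the microglial adaptor also called DAP12, through a constitutive deletion, and Q175;Tyrobp-/- mice (n = 5) carried both. The mice were adults of both sexes, and sex was uneven, with 1 female of 5 in WT, 4 of 5 in Q175, 2 of 3 in Tyrobp-/- and 2 of 5 in Q175;Tyrobp-/-. The labels give 2 striata per sample, whereas the methods describe 1.

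Total counts per sample were between 11260410 and 29771983. Counts were scaled to a library of typical size (normalized counts, TMM). Tyrobp itself had between 3504 and 8492 normalized counts in the 10 Tyrobp-intact samples and between 177 and 381.3 in the 8 samples with the deletion, with no overlap. All 12 microglial markers had at least 100 counts in every sample, and their sum ranged from 220000 to 403100. The preparations were not pure: none of the 10 astrocyte or 10 oligodendrocyte markers was at 0 in any sample, and the oligodendrocyte sum ranged from 31300 to 114300. The summed astrocyte level was 9578 to 19030 in WT, 17730 to 107500 in Q175, 12250 to 73180 in Tyrobp-/- and 11340 to 57860 in Q175;Tyrobp-/-. In these bulk samples a larger number of cells of a type and more RNA per cell cannot be told apart.

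Cells make cholesterol from acetyl-CoA by way of mevalonate, isoprenoids, squalene and lanosterol. SREBP2, the product of Srebf2, is a transcription factor held in the endoplasmic reticulum membrane, and when sterols are scarce it is carried to the Golgi, cleaved, and moves to the nucleus, where it switches on the enzymes. INSIG1, itself an SREBP target, retains the SREBP complex when sterols are plentiful. In the adult brain, which makes its own cholesterol because lipoproteins do not cross the blood-brain barrier, astrocytes and oligodendrocytes are the main producers, and microglia are known chiefly for taking up and exporting sterol from myelin and debris.

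Per kilobase of exon, Hmgcs1 had the highest level of the 7 genes over the 18 samples, at 260 ± 160.9 normalized counts (SD), followed by Srebf2 at 218.1 ± 53.78 and Insig1 at 185.5 ± 53.58. Cyp51 was at 82.04 ± 16.66, Fdft1 at 69.36 ± 12.24, Sqle at 29.48 ± 6.033 and Idi1 at 20.91 ± 13.71. The step from Insig1 to Cyp51 and that from Fdft1 to Sqle held in 18 of 18 samples. The neighbours Hmgcs1 and Srebf2 did not differ beyond their spread, with Hmgcs1 above in 10 of 18 samples. Srebf2 was above Insig1 in 12, Cyp51 above Fdft1 in 14 and Sqle above Idi1 in 15 of 18. From the lowest to the highest sample, Fdft1 varied least, 1.61-fold, and Idi1 most, 9.63-fold, although Idi1 rested on only 20 to 178 reads per sample.

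Reads were counted without strand, so reads where genes overlap cannot be assigned with certainty. The end of Fdft1 shares 774 bases with Ctsb, the far more abundant cathepsin B gene on the opposite strand (393930 counts over all samples, against 5407 for Fdft1). Cyp51 shares 166 bases with Akap9 on the opposite strand (64201 counts, against 6654). Srebf2 (chromosome 15, GRCm38, 82147181 to 82205379) contains the Mir33 locus in an intron, with 8 counts in all. It also shares 2110 bases with Gm49502 on the same strand (723 counts, against 28222). Hmgcs1 shares 6190 bases with Gm48342 on the opposite strand (7 counts, against 21179).

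RefSeq promoters (GRCm38.p6, 250 bases before to 50 after the start) were found for 5 of the 7 genes, Srebf2, Hmgcs1, Idi1, Insig1 and Cyp51. They were searched on both strands for 3 patterns: the sterol regulatory element TCACNCCAC, bound by SREBPs, the CCAAT box CCAAT, bound by NF-Y, and the GC box GGGCGG, bound by Sp1, the last pair being factors that act beside SREBPs. CCAAT and the GC box were in 5 of 5 promoters, against 37.4% and 35.7% of all 32851 promoters, and in 12 and 13 of the promoters of 16 other cholesterol synthesis enzymes. The sterol element was matched in 1 of 5, Hmgcs1, against 1.24% of all promoters and 0 of the 16. Only this exact pattern was searched and near matches were not counted, so a promoter without a match may still hold a sterol element. Hmgcs1 and Insig1 are shown because they are an enzyme and a regulator whose levels ran closely together across samples. The bases before the annotated gene are given 5′ to 3′ on the strand of the gene, with matches to any of the 3 patterns in capitals (ATTGG and CCGCCC are the reverse strand of CCAAT and GGGCGG), and no matches overlapped. The Hmgcs1 sequence is chr13:119690101-119690350 (+ strand), with the sterol element at -137 to -129 from the start, and the Insig1 sequence is chr5:28071162-28071362 (+ strand).
Hmgcs1: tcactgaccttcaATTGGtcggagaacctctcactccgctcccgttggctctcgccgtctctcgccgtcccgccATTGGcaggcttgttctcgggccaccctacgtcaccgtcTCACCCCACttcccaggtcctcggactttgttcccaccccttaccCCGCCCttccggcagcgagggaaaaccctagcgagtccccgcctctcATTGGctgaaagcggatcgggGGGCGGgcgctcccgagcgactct
Insig1: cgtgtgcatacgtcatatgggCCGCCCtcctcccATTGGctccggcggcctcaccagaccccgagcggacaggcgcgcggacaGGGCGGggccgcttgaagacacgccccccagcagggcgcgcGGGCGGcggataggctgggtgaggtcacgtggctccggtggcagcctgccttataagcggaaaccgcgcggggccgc

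A pair of libraries stood out for these genes, and every comparison below touches one or both of them. Tyrobp-/- replicate 20 had the highest and Q175 replicate 14 the next highest value of the 18 samples for Hmgcs1, Sqle, Idi1, Insig1 and Cyp51. Both were female, and they also had the highest astrocyte marker sums, 73180 in Tyrobp-/- replicate 20 and 107500 in Q175 replicate 14, and the highest pan-neuronal sums, 8419 and 8152. By the mean log2 level of the microglial markers, rather than their sum, they ranked low, 14th and 17th of 18. The main values are therefore also given without them, and the part of other cells in the results was not tested beyond the values given.

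**Figure D1:**
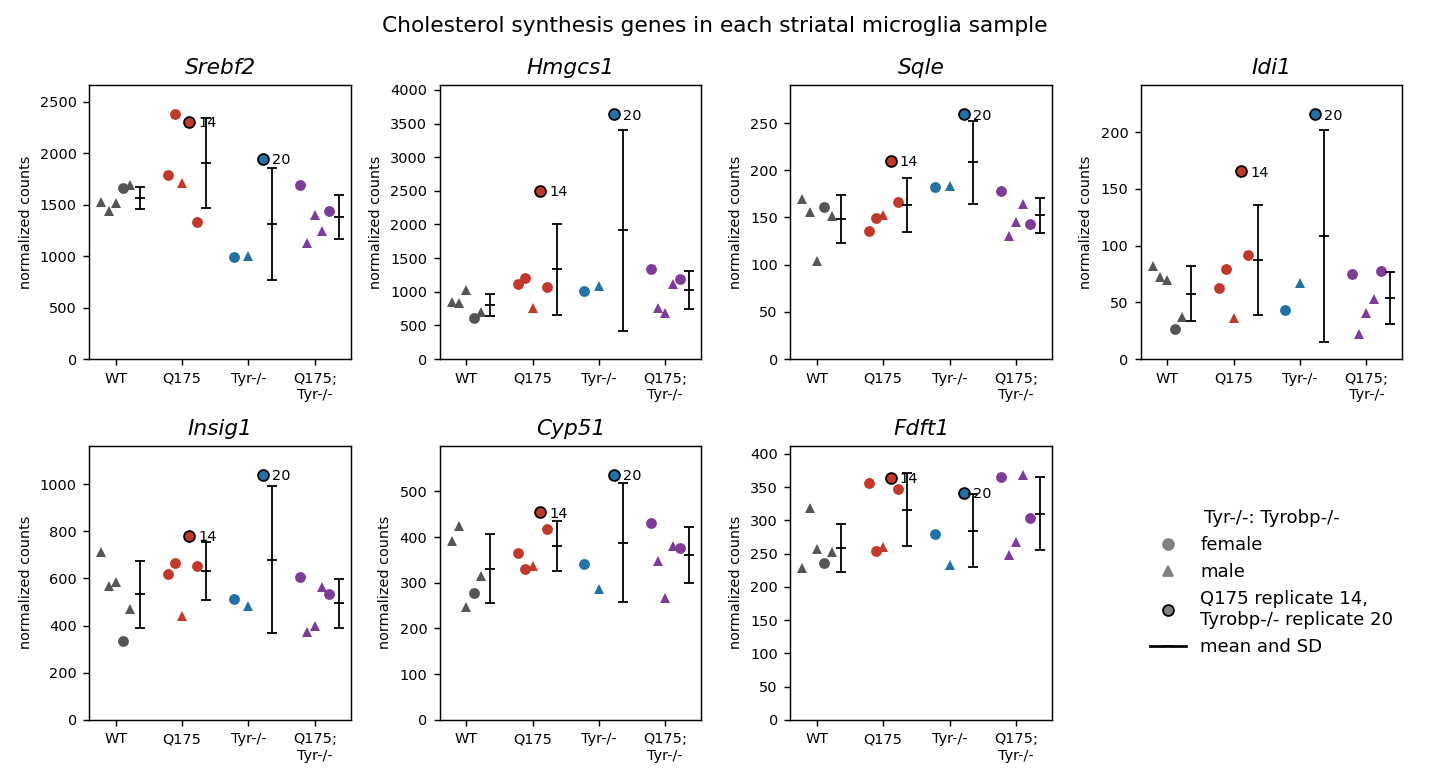
Normalized counts (vertical axes, from 0) of the 7 genes in every sample by genotype, with females as circles, males as triangles, and the mean and SD beside each group. Q175 replicate 14 and Tyrobp-/- replicate 20, outlined, lie at the top for Hmgcs1, Sqle, Idi1, Insig1 and Cyp51 (Hmgcs1 2504 and 3637), while most other samples overlap between groups.

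The first comparison asked whether the Q175 allele changed the pathway in microglia with TYROBP. No gene of the 7 passed an FDR of 0.1 by edgeR's quasi-likelihood test, where 0.00% of 18266 genes did, or by DESeq2, where 1.28% did. The estimates were above 0 for all 7, with a median log2 fold change of 0.30 (0.16 to 0.76), against -0.02 over all genes. At an unadjusted p under 0.05, 1 of the 7 was counted, Hmgcs1, against 6.24% of all genes. In no gene of the 7 were the groups free of overlap, as they were in 1.08% of all genes. Without Q175 replicate 14, 0 of the 7 were under that p (3.75% of all genes).

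Hmgcs1 encodes the cytosolic synthase that makes HMG-CoA at the head of the pathway. In WT it had 845.5, 827.7, 1031, 606.6 and 696 normalized counts, and in Q175 1117, 1204, 753.9, 2504 and 1076. The groups overlapped, Q175 was higher in 22 of 25 pairs, and 1 Q175 sample lay far above the others. The log2 fold change was 0.76 (SE 0.29, 95% interval 0.14 to 1.39), with an adjusted p of 0.609 by edgeR. Without Q175 replicate 14 the estimate was 0.39, and the Q175 mean was 1038 ± 196.7 (SD, n = 4) against 801.4 ± 161.6 in WT (n = 5).

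Srebf2 itself was tight in WT, with 1531, 1437, 1515, 1661 and 1695 normalized counts, and wide in Q175, with 1792, 2380, 1710, 2308 and 1334. Its log2 fold change was 0.30 (SE 0.17), with an adjusted p of 0.928. Idi1, which isomerizes the isoprenoid building block, ranged from 26.84 to 82.05 in WT and from 36.27 to 165.5 in Q175, and Insig1 from 332.8 to 711.5 and from 440.2 to 781.9. Fdft1 and Sqle, which make squalene and oxidize it, gave 0.32 and 0.16, and Cyp51, which demethylates lanosterol, gave 0.23, all with 95% intervals that include 0. With a score of astrocyte, neuronal and oligodendrocyte markers as a term, the median of the 7 was -0.31 in place of 0.30, and only Srebf2 kept a positive estimate. That score was between -0.7106 and -0.3573 in the 5 WT samples and between 0.01636 and 1.412 in the 5 Q175 samples, so the 2 groups did not overlap in it.

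The second comparison asked what deleting Tyrobp changed in Q175 mice. None of the 7 passed the FDR of 0.1 by edgeR (0.0111% of 18059 genes did) or DESeq2 (0.227%). All 7 had lower estimates in Q175;Tyrobp-/- than in Q175, with a median log2 fold change of -0.35 (-0.70 to -0.03), against -0.05 over all genes. This comparison shares the Q175 samples with the first. Of the 7, 1 gene, Srebf2, was under an unadjusted p of 0.05, against 8.01% of all genes. No gene of the 7 separated the groups without overlap (0.876% of all genes). Without Q175 replicate 14, 0 of the 7 were under that p, Srebf2 included (5.24% of all genes).

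Srebf2 had 1693, 1125, 1402, 1246 and 1437 normalized counts in Q175;Tyrobp-/-, against 1334 to 2380 in Q175, so that the groups overlapped and 3 of 25 pairs were higher in Q175;Tyrobp-/-. The log2 fold change was -0.47 (SE 0.18, 95% interval -0.85 to -0.08), with an adjusted p of 0.533 by edgeR, and it stayed between -0.57 and -0.38 when each sample was left out. The microglial marker sum was 220000 to 347500 in Q175 and 256500 to 361900 in Q175;Tyrobp-/-. For Idi1, Q175;Tyrobp-/- samples had 75.05, 22.4, 40.52, 53.35 and 77.44, and the log2 fold change was -0.70 (95% interval -1.61 to 0.21), and -0.35 without Q175 replicate 14. Insig1 gave -0.35 (-0.75 to 0.05), Hmgcs1 -0.38, Sqle -0.10, Cyp51 -0.08 and Fdft1 -0.03. Without Q175 replicate 14 the median of the 7 was -0.04 and Hmgcs1 was -0.04. Under total count scaling, which moved the median of all genes by 0.13, Sqle, Cyp51 and Fdft1 had positive estimates.

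The third comparison, Tyrobp-/- against WT, asked what the deletion changed without Q175. Again no gene of the 7 passed the FDR of 0.1 by edgeR (0.0222% of 18017 genes) or DESeq2 (0.932%). Of the estimates, 6 were positive and that of Srebf2 was negative, with a median log2 fold change of 0.40 (-0.20 to 1.30), against 0.02 over all genes. At an unadjusted p under 0.05 there were 2 of the 7, Hmgcs1 and Sqle, against 6.82% of all genes. Without Tyrobp-/- replicate 20 there was 1 of the 7, against 11.5% of all genes.

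Hmgcs1 had 1007, 1092 and 3637 normalized counts in the 3 Tyrobp-/- samples, and 606.6 to 1031 in WT. The means were 1912 ± 1494 (SD, n = 3) and 801.4 ± 161.6 (n = 5), and without the highest sample the Tyrobp-/- mean was 1049 ± 59.97 (n = 2). The log2 fold change was 1.30 (SE 0.38), with an adjusted p of 0.565 by edgeR, and 0.46 without Tyrobp-/- replicate 20. Idi1 had 43.51, 67.15 and 215.7 and moved from 0.95 to 0.02 on leaving that sample out, and Insig1 had 512.8, 484.3 and 1039 and moved from 0.40 to -0.03. Cyp51 moved from 0.29 to -0.01, Fdft1 from 0.20 to 0.05, and the median of the 7 from 0.40 to 0.02. The estimate of Srebf2 moved from -0.20 to -0.59. Srebf2 had 989.4, 1003 and 1947, below every WT sample in the first pair and above every one in the last.

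Sqle was the one gene of the 7 whose groups did not overlap, in this comparison and the next. It encodes squalene epoxidase, an oxygen-dependent and tightly regulated step. Tyrobp-/- samples had 182.3, 183.3 and 259.3 normalized counts, and WT samples 169.1, 155.9, 103.9, 161 and 152, so that all 15 pairs were higher in Tyrobp-/-. Groups without overlap were found for 4.53% of all genes. The log2 fold change was 0.55 (SE 0.24, 95% interval 0.01 to 1.08), with an adjusted p of 0.715 by edgeR, and 0.37 without Tyrobp-/- replicate 20.

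The fourth comparison asked what Q175 changed without TYROBP. None of the 7 passed by edgeR (0.00% of 17723 genes) or DESeq2 (3.84%), and 1 of the 7, Sqle, was under an unadjusted p of 0.05, against 13.2% of all genes. Srebf2 and Fdft1 had positive and the other 5 negative estimates, with a median log2 fold change of -0.47 (-1.03 to 0.10). For Sqle, Q175;Tyrobp-/- samples had 178.1, 130.6, 145.4, 164.3 and 142.7, all below the 3 Tyrobp-/- samples, and 9.71% of all genes showed groups without overlap. Its log2 fold change was -0.47 (SE 0.19), with an adjusted p of 0.333 by edgeR, and -0.29 without Tyrobp-/- replicate 20. Without that sample Idi1 moved from -1.03 to -0.08, Insig1 from -0.48 to -0.04 and Srebf2 from 0.06 to 0.45. Hmgcs1, with 1342, 764.8, 687.7, 1115 and 1195 in Q175;Tyrobp-/-, gave -0.92 (95% interval -1.87 to 0.02), and -0.06 without Tyrobp-/- replicate 20. The median of the 7 without that sample was -0.04, and 1 of the 7 was under an unadjusted p of 0.05 (15.9% of all genes). This comparison shares the 3 Tyrobp-/- samples with the one before.

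**Figure D2:**
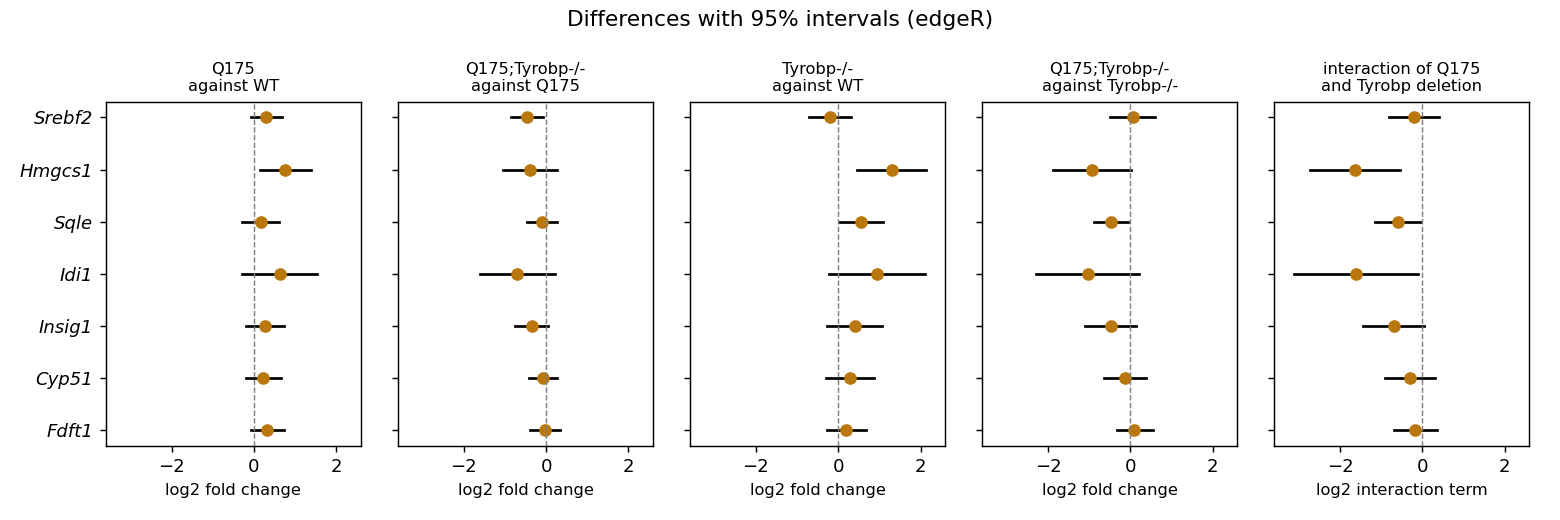
Log2 fold changes (horizontal axes, points) of the 7 genes with 95% intervals (lines) by edgeR in the 4 comparisons, and the log2 interaction term at the right. Most intervals include 0, and those of Hmgcs1, Idi1 and Sqle lie below 0 in the interaction (-1.64, -1.61 and -0.59).

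The interaction term tested whether the effect of Q175 differed with and without TYROBP. All 7 genes had negative terms, that is, a lower Q175 effect without TYROBP, with a median of -0.59 (-1.64 to -0.17), against 0.04 over all genes. None passed the FDR of 0.1 by edgeR (0.00% of 18613 genes) or DESeq2 (0.0107%). Under an unadjusted p of 0.05 there were 3 of the 7, against 6.01% of all genes. They were Hmgcs1 at -1.64 (SE 0.52), Idi1 at -1.61 (SE 0.71) and Sqle at -0.59 (SE 0.27), each with an adjusted p of 0.716 by edgeR. Under that unadjusted p there was 1 of the 7 without Q175 replicate 14 (3.10% of all genes). There were 0 without Tyrobp-/- replicate 20 (3.01%) and 0 without both (2.44%). Insig1 gave -0.70 (95% interval -1.45 to 0.05), and Srebf2, Cyp51 and Fdft1 gave -0.21, -0.31 and -0.17. Both outlying libraries enter this term on the same side of the contrast. Without both, an alternative chosen after seeing the data, the median was -0.25, Hmgcs1 was at -0.49, Idi1 at -0.36, Sqle at -0.38, and Srebf2 at 0.18.

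Across the 18 samples the 7 genes tended to vary in the same direction, Srebf2 least. All 21 pairs had a positive Pearson's r of log2 CPM, with a median of 0.57 (0.16 to 0.94), and 16 of 21 had an adjusted p under 0.1 by permutation over 42 relations, against 11 of 21 for Spearman's rho. The median was 0.33 under total count scaling. The share of other gene pairs that would pass was not computed, so the counts of 16 and 11 have no background. Of 18606 other genes, the one ranked 876 still had a median r of 0.60 to the 7. The closest pair was Idi1 and Insig1, with r = 0.94, and Hmgcs1 followed both closely. With Idi1 its r was 0.88 (permutation p = 1e-05, the smallest that 100000 permutations can give, adjusted p = 0.00021) and rho 0.76 (permutation p = 0.00043). With Insig1 its r was 0.85 (permutation p = 2e-05, adjusted p = 0.00028) and rho 0.78 (permutation p = 0.00029). Leaving out the 2 samples farthest from the median of Hmgcs1 gave r of 0.74 and 0.72. Srebf2 was the loosest member, with r between 0.16 (Sqle) and 0.46 (Insig1), and an adjusted permutation p under 0.1 with 2 of the other 6 genes, Idi1 and Insig1. On deviations from the genotype means, pooled over the 18 samples with both outlying libraries included, the median over the pairs was 0.63. Srebf2 then ranged from 0.24 with Fdft1 to 0.71 with Hmgcs1. Single genotypes were not examined. Without Q175 replicate 14 and Tyrobp-/- replicate 20 the median was 0.39, and 20 of 21 pairs were positive (-0.26 to 0.89). The pair of Idi1 and Insig1 was then at 0.89. Srebf2 was at 0.02 with Hmgcs1 and Cyp51, 0.03 with Fdft1, 0.19 with Idi1, 0.26 with Insig1 and -0.26 with Sqle. Sqle was also loose, at 0.10 with Hmgcs1, 0.12 with Idi1, 0.08 with Insig1 and 0.11 with Fdft1, but 0.43 with Cyp51.

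The same genes followed the astrocyte marker level, the mean log2 level of the 10 astrocyte genes. All 7 correlations were positive, with a median r of 0.63 (0.56 to 0.75), and 7 of 7 had an adjusted permutation p under 0.1 for Pearson's r and 6 of 7 for rho. Hmgcs1 was closest, with r = 0.75 (permutation p = 0.00018, adjusted p = 0.00151) and rho 0.72 (permutation p = 0.0011). Its r was 0.56 after leaving out the 2 samples farthest from the median. Without the 2 outlying libraries the median was 0.36 (0.31 to 0.61), still positive in 7 of 7. For oligodendrocyte markers the median r was 0.43 (0.20 to 0.53), with 3 of 7 under an adjusted permutation p of 0.1 for Pearson's r and 5 of 7 for rho. Without the 2 outlying libraries it was 0.51 (0.16 to 0.59), above the astrocyte median. For microglial markers it was -0.37 (-0.80 to -0.02), with all 7 negative. Srebf2 had the strongest, with r = -0.80 (permutation p = 6e-05, adjusted p = 0.00063) and rho -0.79 (permutation p = 0.00016). Its r was -0.67 without the 2 farthest samples. Without the 2 outlying libraries the microglial median was -0.19 (-0.77 to 0.30), with 3 of 7 positive, and Srebf2 was at -0.77. The shares of all genes that would pass with these marker levels were not computed. All values in a sample share its library and scaling. No other batch is named in the labels.

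**Figure D3:**
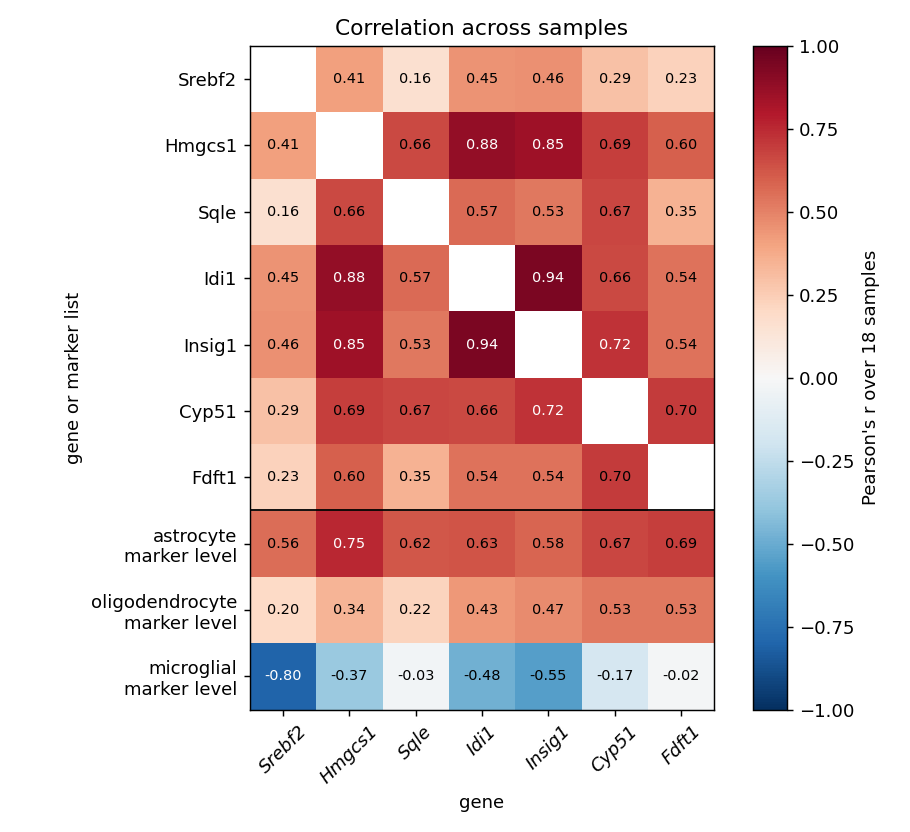
Pearson's r over 18 samples between the 7 genes (upper block) and of each with the astrocyte, oligodendrocyte and microglial marker levels (lower rows), red for positive and blue for negative. The block of Hmgcs1, Idi1 and Insig1 reaches 0.94, the astrocyte row is positive throughout (0.56 to 0.75), and Srebf2 with microglial markers is at -0.80.

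**Figure D4:**
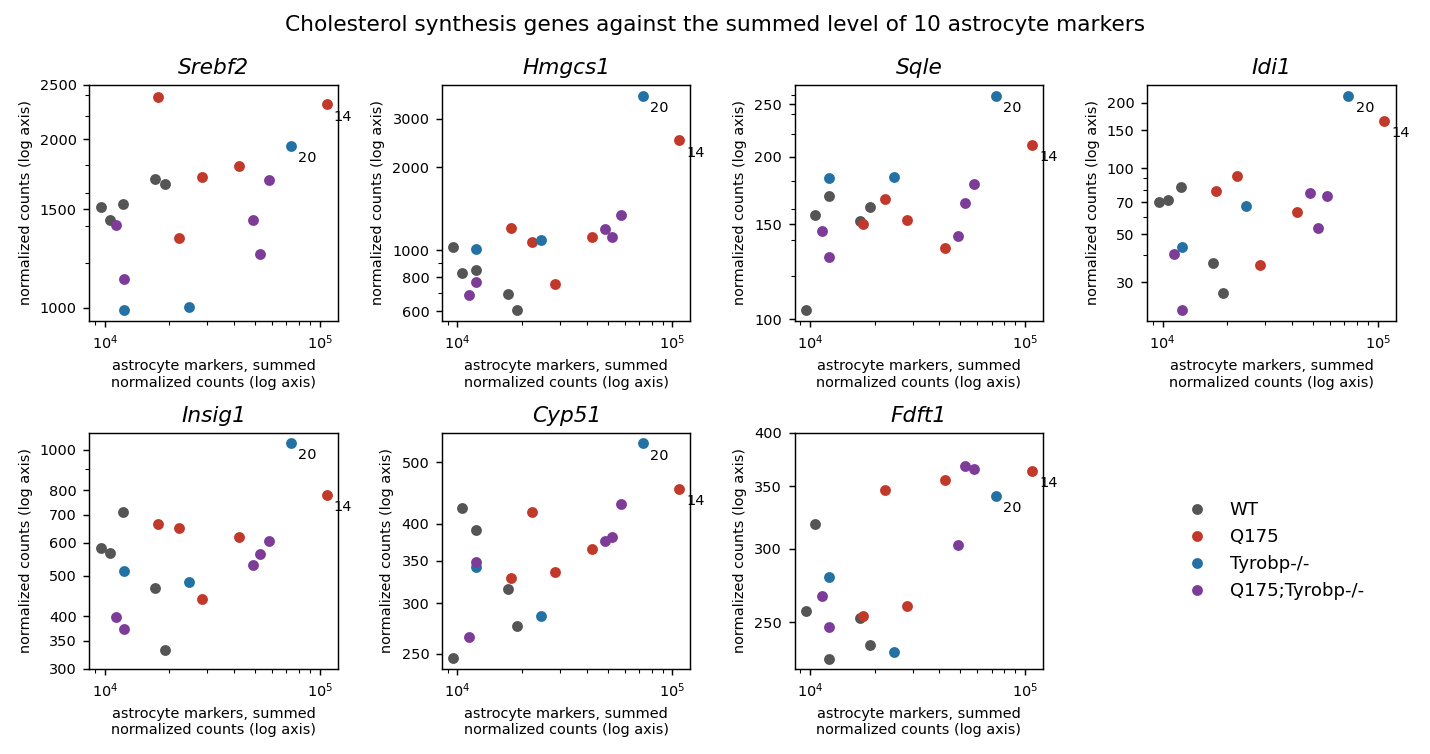
Normalized counts of each gene against the summed normalized counts of 10 astrocyte markers in the same sample (both log axes), coloured by genotype. Tyrobp-/- replicate 20 and Q175 replicate 14 lie at the far right (73180 and 107500), and Tyrobp-/- replicate 20 is the top point for Hmgcs1, Sqle, Idi1, Insig1 and Cyp51.

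Of 18606 other genes ranked by their median r to the 7, the first 10 were Sh3bgrl, Ppa1, Sc5d, Gm10925, Rab30, Phkb, Higd1a, AC127249.1, Hopx and Hsdl2, at 0.83 for the first 3 and 0.78 to 0.80 for the rest, over 18 samples. Without the 2 outlying libraries they ranked between 1 and 123, at 0.57 to 0.73, and Sc5d was at 0.66. Sc5d is the sterol desaturase late in cholesterol synthesis, and it was among the first 3. Its level was 316.7 to 508.3 normalized counts in WT, 385.5 to 921.1 in Q175, 377.6 to 1096 in Tyrobp-/- and 303.3 to 581.5 in Q175;Tyrobp-/-.

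The rest of the pathway was not uniform. Among the 16 other cholesterol synthesis enzymes, the median r to the 7 was 0.55 for Acat2 and 0.54 for Msmo1, but -0.20 for Lss and -0.51 for Fdps. Without the 2 outlying libraries these were 0.43, 0.32, -0.05 and -0.57. None of the 16 was under an unadjusted p of 0.05 in Q175 against WT, where 11 were higher and 5 lower. In Q175;Tyrobp-/- against Q175, 13 of 16 estimates were lower, and Msmo1, a sterol methyl oxidase, gave -0.52 (SE 0.18, adjusted p = 0.533 by edgeR), and -0.48 without Q175 replicate 14. In the interaction, Msmo1 gave -0.97, with an adjusted p of 0.716 by edgeR, and -0.29 without both outlying libraries.

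Sterol handling genes differed among themselves in how they followed the 7. The sterol transporter Stard4 followed the 7 genes, with a median r of 0.62, whereas the efflux transporter Abca1 (-0.49), the lysosomal transporter Npc1 (-0.53) and the LXR-induced ubiquitin ligase Mylip (-0.61) ran opposite to them. The regulators Scap, Mbtps1 and Mbtps2, which escort and cleave SREBPs, were also negative, at -0.32, -0.49 and -0.26. Neither list went in a single direction. The other genes of the LXR response and sterol efflux list, which holds Abca1 and Mylip, ranged from -0.53 to 0.49. The other SREBP regulators ranged from -0.54 to 0.32. Without the 2 outlying libraries Stard4 was at 0.27, Abca1 at -0.17, Npc1 at -0.32, Mylip at -0.35, Scap at -0.21, Mbtps1 at -0.31 and Mbtps2 at -0.11. The other genes of the LXR list then ranged from -0.17 to 0.32, and the other regulators from -0.45 to 0.21.

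**Figure D5:**
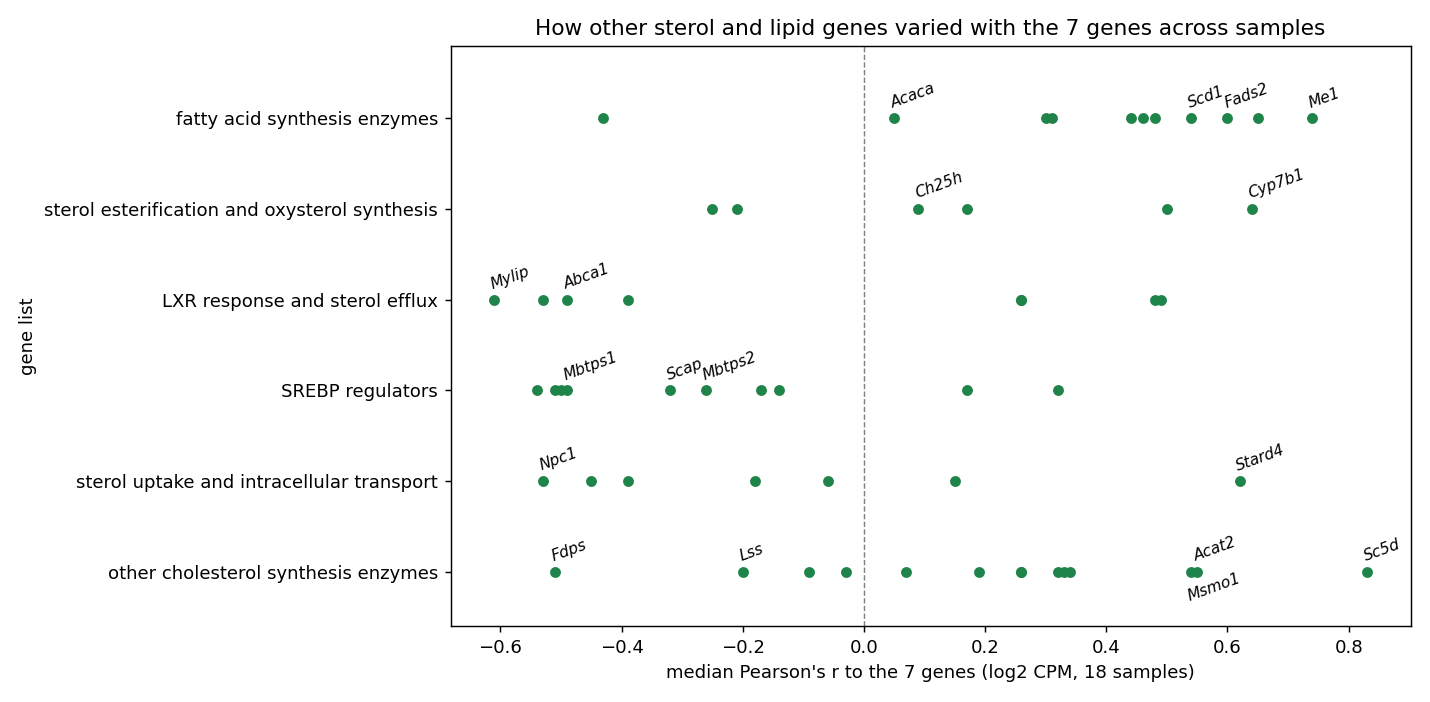
Median Pearson's r of the other sterol or lipid genes reported here to the 7 genes over 18 samples (horizontal axis), by list (vertical axis), with the genes discussed in the text named. Sc5d (0.83) and Me1 (0.74) are farthest to the right, and Mylip (-0.61) is farthest to the left.

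Fatty acid enzymes, which SREBPs also drive, were also examined, and their difference from the 7 genes was not tested. Against WT, 11 of 11 estimates were positive, with a median log2 fold change of 0.58 (0.04 to 1.63) in Q175, and 5 of 11 were under an unadjusted p of 0.05, against 6.24% of all genes. Without Q175 replicate 14 the median was 0.41, 11 of 11 were positive, and 3 of 11 were under that p, against 3.75% of all genes. The desaturase Fads2 gave 1.63 (SE 0.40), with 209 to 511.3 normalized counts in WT and 530 to 2163 in Q175, which did not overlap (1.08% of all genes did not). It had an adjusted p of 0.345 by edgeR and 0.0205 by DESeq2, and its estimate was 1.09 without Q175 replicate 14. The stearoyl-CoA desaturase Scd1 gave 1.48 (adjusted p = 0.404 by edgeR) and the NADPH-producing malic enzyme Me1 gave 1.28 (adjusted p = 0.441), or 1.02 and 0.70 without that sample. Tyrobp-/- against the same WT samples gave 9 of 11 positive, with a median of 0.45, and 1.38, 1.41 and 1.03 for Fads2, Scd1 and Me1. There 3 higher and 1 lower were under that p, against 6.82% of all genes. Without Tyrobp-/- replicate 20 the median was 0.22, with 7 of 11 positive, and 3 of 11 were under that p (11.5% of all genes). In Q175;Tyrobp-/- against Q175 the median was -0.24 with 8 of 11 lower, but 0.14 without Q175 replicate 14. In Q175;Tyrobp-/- against Tyrobp-/- it was 0.12, and 0.54 without Tyrobp-/- replicate 20. The median interaction term was -0.51, and -0.12 without both outlying libraries. WT and Q175 did not overlap in the marker score given above, and estimates of these enzymes with it are not given.

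By edgeR, 0 of the 60 listed sterol and lipid genes other than the 7 passed the FDR of 0.1 in any comparison or in the interaction, Ch25h being too low to be tested in Q175;Tyrobp-/- against Tyrobp-/-, where 59 were tested. At an unadjusted p under 0.05 there were 7, 8, 8 and 7 genes in the 4 comparisons in the order given, and 7 in the interaction. The matching shares of all genes, in the same order, were 6.24%, 8.01%, 6.82%, 13.2% and 6.01%. In the interaction without Tyrobp-/- replicate 20, the only such gene was 1 of 11 fatty acid enzymes (3.01% of all genes). Without both outlying libraries it was 1 of 16 other cholesterol synthesis enzymes (2.44%). Q175 against WT without Q175 replicate 14 had 3 of 11 fatty acid enzymes and 1 of 6 esterification and oxysterol genes (3.75%). In Q175;Tyrobp-/- against Q175 without that sample, every list had 1 or 2 genes (5.24%). DESeq2 called Fads2 and the oxysterol hydroxylase Cyp7b1 as higher in Q175 than in WT, and Lss and Acaca as higher in Q175;Tyrobp-/- than in Tyrobp-/-. It also called Ch25h, which makes 25-hydroxycholesterol, a suppressor of SREBP processing, as lower in both comparisons of deletion, with edgeR log2 fold changes of -4.26 in Q175 and -4.57 without Q175 (DESeq2 adjusted p = 2.66e-05 and 1.28e-05, edgeR 0.335 and 0.565). These were -4.01 without Q175 replicate 14 and -4.41 without Tyrobp-/- replicate 20. Mean Ch25h was 128.4 in WT, 101.1 in Q175, 5.11 in Tyrobp-/- and 4.937 in Q175;Tyrobp-/- normalized counts. Its median r to the 7 genes over the 18 samples was 0.09.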

How the data were processed

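RNA from CD11b-enriched adult mouse striatum was amplified (SMART-Seq v4), sequenced without strand and, per the methods, aligned with STAR to GRCm38 and counted per gene with featureCounts by the authors. The submitters' processing notes name GRCh38, a human build, but the 55536 Ensembl gene IDs are mouse and all matched GENCODE M21. The deposited values are raw counts, not normalized. In the table, 2 columns of values matched no sample in the labels and were not used. Groups came from the labels. All 7 genes passed the filter on low values in every comparison.

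Each comparison was fitted on its own pair of groups with edgeR 4.0.16 (R 4.3.3; TMM, quasi-likelihood test) for genes reaching 1 CPM in 1 or more samples, with Benjamini-Hochberg adjustment over all genes tested and an FDR of 0.1, and the interaction was fitted over 18 samples. DESeq2 1.42.0 was an alternative, beside other scalings, filters, an FDR of 0.05, robust fitting, 1 fit over 4 groups, sex or a non-microglial marker score as a term, and leaving out each sample. The fitting code was tested on simulated data. Correlations used log2 CPM (prior count 2) and 2-sided tests with 100000 permutations. Marker levels are means of log2 (normalized count + 1), and sums add normalized counts. The labels do not say that each sample came from a separate animal. The methods describe dissociating the striata of each mouse, and every group held both sexes. Where samples shared an animal, p-values would in part measure technical spread.

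The 7 genes, the 60 other pathway genes and the marker lists were chosen with earlier results of these data known. Named genes were all 7, Tyrobp, the 10 genes with the highest median r to the 7, and from each list the genes called by any tool or up to 3 with the smallest unadjusted p per comparison. Fdps was named after its values were seen. Results that name some of the listed genes are not reported here.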

Additional observations from a re-analysis of the deposited data

Results flagged for a closer look

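Among the 21 groups of 5 samples in which the highest or lowest sample was compared with the others by Dixon's rule, which flags about 1 in 20 by chance, 2 had a sample far from the rest. Hmgcs1 in Q175 replicate 14 was at 2504 normalized counts, with a gap to the next sample of 0.743 of the range of the group. Sqle in WT replicate 6 was at 103.9 normalized counts, with a gap of 0.737 of the range. The critical value for 5 samples is 0.71. Tyrobp-/- replicate 20 was in a group of 3, which was not examined in this way.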

How the results depend on the processing

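No paired analysis was possible because replicate numbers are unique to each genotype. No gene of the 7 was called under any alternative run. Other sterol and lipid genes, with 0 calls as fitted, gave calls in Q175 against WT (2 by DESeq2), Q175;Tyrobp-/- against Q175 (1 by DESeq2, 1 with no filter and 1 in the fit over all 4 groups), Tyrobp-/- against WT (1 by DESeq2, 1 with no filter and, leaving out each sample, 0 to 1, the 1 being without WT replicate 6) and Q175;Tyrobp-/- against Tyrobp-/- (2 by DESeq2); the cause was not tested. The median r of the gene pairs was 0.33 under total count scaling, and 0.39 without Q175 replicate 14 and Tyrobp-/- replicate 20.

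Signs turned as follows. In Q175 against WT after adding the non-microglial marker score, Hmgcs1 was -0.55, Sqle -0.33, Idi1 -1.01, Insig1 -0.31, Cyp51 -0.23 and Fdft1 -0.08. In Q175;Tyrobp-/- against Q175, total count scaling gave Sqle 0.03, Cyp51 0.05 and Fdft1 0.10, sex as a term gave Cyp51 0.02 and Fdft1 0.07, and the score gave Sqle 0.00, Cyp51 0.03 and Fdft1 0.08, while leaving out each sample gave -0.17 to 0.01 for Cyp51 and -0.11 to 0.04 for Fdft1. In Tyrobp-/- against WT, leaving out each sample gave -0.03 to 0.59 for Insig1 and -0.01 to 0.45 for Cyp51. In Q175;Tyrobp-/- against Tyrobp-/-, Cyp51 was 0.01 under total count scaling and 0.00 with sex as a term, and leaving out each sample gave -0.29 to 0.17 for Cyp51, -0.10 to 0.45 for Srebf2 and -0.01 to 0.25 for Fdft1. In the interaction, sex as a term gave Srebf2 0.05 and Fdft1 0.01, the score gave Srebf2 0.15, Cyp51 0.04 and Fdft1 0.09, and Srebf2 ranged from -0.37 to 0.15 on leaving out each sample and was 0.18 without both libraries. Total count scaling moved the median of all genes by 0.13 in Q175;Tyrobp-/- against Q175 and by 0.11 in the interaction. The smallest group held 3 samples, sex was uneven between groups, and Idi1 had 20 to 178 counts per sample. Values without Q175 replicate 14 or Tyrobp-/- replicate 20 for genes other than the 7 were added after seeing the data, as were those without both.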
